A study of Mus musculus with 6 samples.

Results

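DES epithelial cluster 1 is a group of 536 uterine epithelial cells from mice exposed to diethylstilbestrol (DES), a synthetic estrogen. Its members are the cells that the authors' deposited annotation places in cluster 1 of their clustering of DES epithelial cells and that have counts. They make up 11.6% (95% exact interval 10.7% to 12.6%) of the 4608 DES epithelial cells with a cluster number and counts, which fall into 16 clusters numbered from 0. Another 2 numbered cells have no counts here, and neither belongs to cluster 1.

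The mice were of the CD-1 strain and 12 months old. As neonates, from day 1 to day 5, they were dosed daily with DES (1 mg/kg/day) or with the corn oil vehicle (CO). Uteri of more than 1 mouse per treatment were pooled into 1 single-cell library each, with 32387 CO cells and 16312 DES cells, and whole tissue sections of 2 CO and 2 DES mice were measured by spatial RNA profiling. The DES mice were in persistent estrus and the CO mice were collected in estrus. Because the DES cells come from 1 pooled library, cells are not replicates, the values below carry counting intervals only, and no p-value was computed between clusters. The authors removed doublets and cells with a basal cell signature before clustering, and 0 cells of cluster 1 met that basal rule (more than 1 count of both Krt14 and Trp63).

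The uterine lining consists of a luminal epithelium facing the cavity and of glands that open into it. The luminal epithelium forms a mucosal barrier: under estrogen it secretes antimicrobial and mucus proteins and complement, and it divides. Wnt ligands made by the epithelium, among them Wnt4, Wnt7a and Wnt7b, take part in forming the glands and in communication with the stroma.

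The cells of cluster 1 were epithelial by their markers. Epcam, which encodes an epithelial adhesion protein (chromosome 17, 87635979 to 87651129, mm10), was at 806 CPM (95% Poisson interval 794 to 818). CPM are counts of unique molecular identifiers (UMIs) summed over the cells of a cluster and scaled to counts-per-million. The other clusters ranged from 724 to 883 CPM, and cluster 1 ranked 11 of 16, so Epcam did not set it apart. After each cell was thinned to 3000 UMIs, 89.7% (86.8% to 92.1%) of cluster 1 cells had a UMI of Epcam, against 89.7% of the cells of the other clusters and 9.86% of DES mesothelial cells, a type that should lack it. Median depths were 30178, 23755 and 12329 UMIs per cell in these 3 populations before thinning. Without thinning the shares were 100%, 99.4% and 33.7%.

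Wnt7b, a Wnt ligand of the glandular and luminal epithelium (chromosome 15, 85535437 to 85582473, mm10), was highest in cluster 1 of all 16 clusters. Its level was 40.7 CPM (38.1 to 43.5), and the next were cluster 5 at 34.3 CPM (30.5 to 38.3), cluster 9 at 33.8 CPM (29.8 to 38.1) and cluster 12 at 32.7 CPM (27.5 to 38.7). The intervals of these neighbours overlapped one another, and those of clusters 5, 9, 12 and 15 reached that of cluster 1. Cluster 8 was lowest at 6.85 CPM (4.91 to 9.29). After thinning to 3000 UMIs, 14.2% (11.4% to 17.5%) of cluster 1 cells had a Wnt7b UMI, compared with 7.40% in the other clusters and 1.98% in DES mesothelial cells. Without thinning these shares were 68.8%, 46.9% and 8.65%. Over the 16 clusters the genes whose log2(CPM + 1) followed Wnt7b most closely, among 2676 genes with a mean of at least 50 CPM, included Arap2 (Pearson r = 0.89), Psmb8 (0.89), Elf3 (0.86) and Farp1 (0.85). The 16 points share 1 library and differ in depth, so these r are descriptions.

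Cluster 1 cells were deeply sampled. Their median was 30178 UMIs (quartiles 17550 and 58011) and 5402.5 genes per cell, the fourth highest UMI median of the 16 clusters, and 21347507 UMIs were summed for the cluster. Mitochondrial genes took a median of 13.2% of UMIs, the highest of 16 clusters, and ribosomal protein genes 21.4%, the lowest. Scaled without mitochondrial genes, the counts of 136 higher and 104 lower genes given below were 166 and 116, and all 30 leading genes kept their fold. The part of the ribosomal share was not tested. Of the cluster 1 cells, 5 carried a barcode that also occurs in the CO library (0.933%, and 0.933% of all clustered cells), out of 180 barcodes shared by the libraries.

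**Figure D1:**
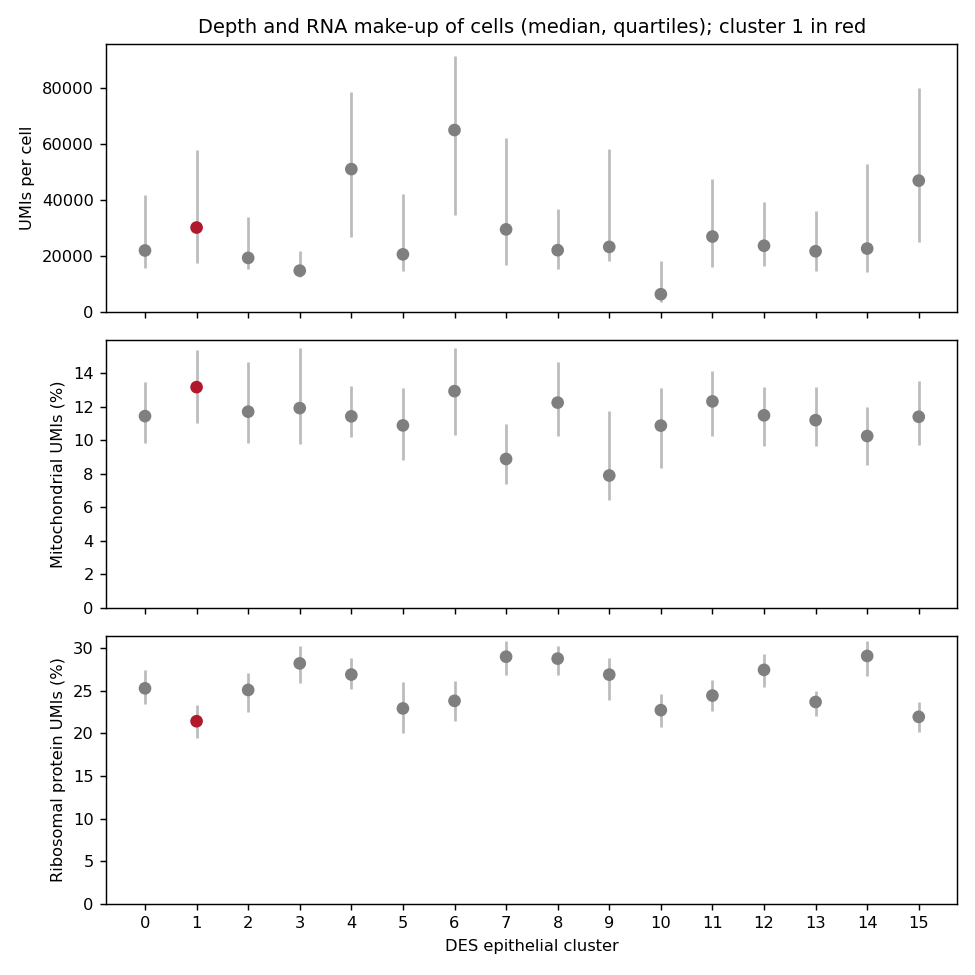
UMIs per cell (top), share of mitochondrial UMIs in percent (middle) and share of ribosomal protein UMIs in percent (bottom) for the 16 DES epithelial clusters, as medians (points) with quartiles (bars). Cluster 1, in red, has the highest mitochondrial median (13.2%) and the lowest ribosomal median (21.4%).

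Most markers of other cell types were at or near 0 in cluster 1. The defining markers Dpt (stroma), Cdh5 (endothelium), Rgs5 and Pdgfrb (pericytes), Cd79a and Nkg7 (lymphocytes) had 0 UMIs in the 536 cells, and the summed CPM of the stromal, endothelial, muscle and lymphocyte lists lay between 1.08 and 4.50, against 1.74 to 4.91 in the pooled other clusters. Pericyte markers summed to 6.23 CPM, all of it Notch3, and mesothelial markers to 27.5 CPM (21.9 CPM in the others), mostly Upk3b. Basal markers summed to 49.0 CPM (90.5 CPM in the others), nearly all of it Krt5 (45.2 CPM), with Krt14 at 3.61 CPM and Trp63 at 0.281 CPM. The myeloid list summed to 84.9 CPM (59.1 CPM in the others), the highest of the 16 clusters. Cd68, which encodes a lysosomal protein, supplied 70.1 CPM of it. Lyz2 was found in 34.9% of the cells, and Adgre1, which defines macrophages, had 10 UMIs in all, which at 0.468 CPM was also the highest of the 16 clusters (0.168 CPM in the pooled others). The part of myeloid RNA in the results was not tested.

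To describe what set cluster 1 apart, its CPM were divided by those of the other 15 clusters pooled. Of 2834 genes with at least 50 CPM in either, 136 (4.8%) were at least 1.5 times higher in cluster 1 and 104 (3.67%) at least 1.5 times lower, and the median log2 ratio was -0.02. Since the clusters were formed on these same counts, the ratios describe the cluster and test nothing. Cluster 1 was the highest of all 16 clusters in 76 of the 136 higher genes and the lowest in 54 of the 104 lower genes. Over all 2834 genes it was highest in 6.56% and lowest in 7.83%. By the number of higher genes it ranked 6 of 16, with cluster 13 first (226 genes). The genes nearest the threshold were Cd74 (log2 ratio 0.592, inside) and Myb (0.585, outside) on the higher side, and Akr1c19 (-0.588, inside) and Npm3 (-0.584, outside) on the lower side.

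Lypd8, Aoc1, Gbp4 and Pcp4l1 had the largest ratios in cluster 1. Lypd8, a GPI-anchored protein that keeps bacteria away from the intestinal lining (chromosome 11, 58379043 to 58390728, mm10), reached 729 CPM (717 to 740). In the other clusters it ranged from 2.17 CPM in cluster 8 to 224 CPM in cluster 6, with a median of 33.5 CPM, and it was 10.4-fold higher in cluster 1 than in the others pooled. The level varied strongly inside the cluster: 25% of the cells had no UMI, the median cell had 2.46 UMIs per 10000 and the 90th percentile was 23.8. After thinning, 50.2% (45.9% to 54.5%) of cluster 1 cells had a Lypd8 UMI, against 8.20% in the other clusters and 1.43% in DES mesothelial cells. Unthinned, the shares were 75%, 23.6% and 6.12%.

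Aoc1, a diamine oxidase that breaks down histamine and polyamines, was at 62.4 CPM in cluster 1 and at 0.963 to 26.7 CPM elsewhere (7.86-fold over the pooled others). Its UMIs came from few cells, since 70.9% of cluster 1 cells had none. Gbp4, an interferon-inducible guanylate-binding protein, was at 180 CPM (174 to 186) against 2.67 to 106 CPM in the other clusters, a 5.63-fold difference. Pcp4l1 was at 102 CPM against 0.241 to 49.8 CPM. These 4 genes were highest in cluster 1 of all clusters, as were the metalloproteinase genes Mmp7 (81.7 CPM) and Mmp23 (110 CPM), the steroid 21-hydroxylase gene Cyp21a1 (58.1 CPM) and Apobec2 (185 CPM), of the cytidine deaminase family.

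The remaining 7 of the 15 leading higher genes had a higher level in another cluster. Prap1, a secreted proline-rich acidic protein of uterine epithelium, was at 6676 CPM (6642 to 6711) in cluster 1, at 8956 CPM in cluster 5 and as low as 138 CPM in cluster 8. Cluster 5 was also above cluster 1 for Krt84 (186 and 136 CPM), Kap (167 and 135 CPM) and Fcgbp (1492 and 1336 CPM), the last a mucus protein. Upk3bl was highest in cluster 12 (313 CPM, and 264 CPM in cluster 1). Postn (310 CPM) and Plac8 (2005 CPM) were highest in cluster 15, with 110 and 868 CPM in cluster 1. The set that led cluster 1 was thus partly shared with clusters 5, 12 and 15. Lypd8, Gbp4, Krt84 and Prap1 were lowest in cluster 8, and Kap, Mmp7, Postn and Plac8 in cluster 14.

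**Figure D2:**
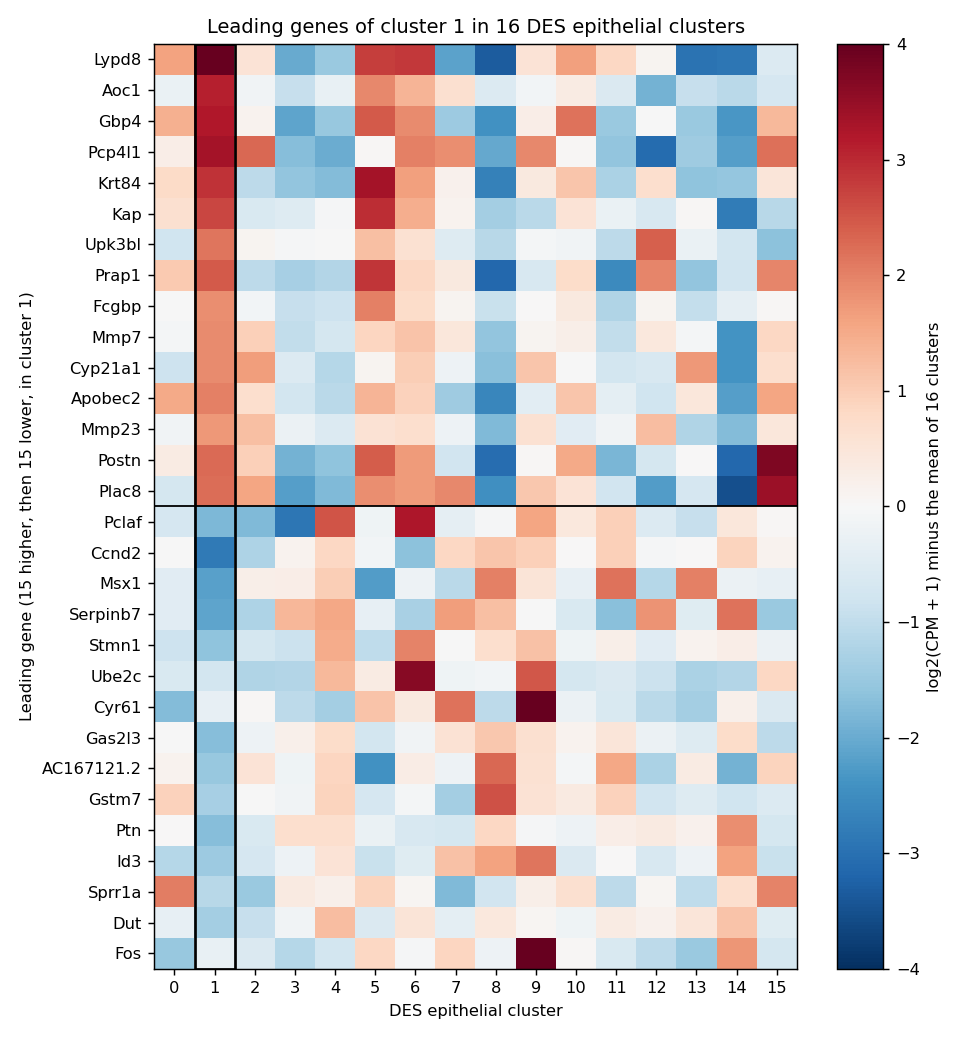
Level of the 30 leading genes of cluster 1 (rows, the 15 highest ratios above the line and the 15 lowest below it) in the 16 DES epithelial clusters (columns), as log2(CPM + 1) minus the mean of the 16 clusters, with colours capped at 4. Cluster 1 is boxed: Lypd8 (729 CPM) and Gbp4 (180 CPM) peak there, while Prap1 and Krt84 are higher in cluster 5.

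The leading lower genes included regulators of the cell cycle, stem cell markers and BMP-responsive genes. Ccnd2, which encodes cyclin D2 (chromosome 6, 127125162 to 127152193, mm10), was at 6.09 CPM (5.09 to 7.23), the lowest of 16 clusters. The other clusters ranged from 14.99 CPM in cluster 6 to 107 CPM in cluster 8, and the pooled others were 9.77-fold higher. Serpinb7, a serine protease inhibitor, was at 31.3 CPM against 41.9 to 619 CPM, and Ptn, the growth factor pleiotrophin, at 152 CPM against 307 to 1822 CPM. Cluster 1 was lowest for both. Stmn1, Gas2l3, Id3 and Dut were likewise lowest in cluster 1, at 27.5, 12.0, 16.8 and 24.9 CPM.

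The ratios of some lower genes depend on 1 or a few other clusters. Fos, an immediate early gene, was at 66.1 CPM in cluster 1 and at 201 CPM in the pooled others, but cluster 9 alone reached 2519 CPM, the median of the other clusters was 54.6 CPM and cluster 1 ranked 8 of 16. Cyr61, a matricellular protein, was at 16.8 CPM with a median of 13.8 CPM in the other clusters and 935 CPM in cluster 9. Ube2c, a mitotic ubiquitin-conjugating enzyme, was at 11.1 CPM with a median of 12.3 CPM elsewhere and 247 CPM in cluster 6. Pclaf (5.76 CPM, rank 15) peaked in cluster 6 at 216 CPM. Msx1 (8.34 CPM, rank 15), Gstm7 (14.1 CPM, rank 15), AC167121.2 (80.0 CPM, rank 14) and Sprr1a (17.1 CPM, rank 14) were near the bottom of the 16 clusters without being lowest.

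Gene lists were read against all 7934 genes with at least 10 CPM over the clustered cells, of which 3.05% were at least 1.5 times higher and 5.5% at least 1.5 times lower in cluster 1, with a median log2 ratio of -0.03. Of 15 mucosal defence genes, 11 passed that level and 8 of them were at least 1.5 times higher. None of the 11 was lower by that fold, and their median log2 ratio was 0.96. The members below that level were each lower in cluster 1 than in the pooled others. They were Cxcl15 (0.0937 and 4.49 CPM), Reg3g (0.141 and 1.07 CPM), Defb1 (0.656 and 1.37 CPM) and Camp (0 and 0.035 CPM). The list contains the leading genes Lypd8 and Prap1. It was chosen with earlier results of these data known, so these counts describe the cluster and test nothing. Ltf, which encodes the iron-binding antimicrobial protein lactotransferrin and is a classical estrogen-responsive gene (chromosome 9, 111019271 to 111042767, mm10), was at 4998 CPM (4968 to 5028), above all other clusters (588 to 4042 CPM). It had a UMI in 99.3% of thinned cluster 1 cells, but also in 25.9% of thinned DES mesothelial cells, so a UMI of Ltf alone does not mark an expressing cell. The other clusters were at 85.2%, and the unthinned shares were 100%, 98.5% for the other clusters and 69.6% for mesothelial cells. Lcn2, a siderophore-binding protein, was at 4818 CPM against 2333 CPM in the pooled others and was higher still in cluster 15 (6253 CPM). Spink12 (3531 CPM), the surfactant protein Sftpd (337 CPM) and the chemokine Cxcl17 (707 CPM) were highest in cluster 1. Wfdc2 (4641 and 4027 CPM), Lyz2 (14.3 and 12.8 CPM) and Slpi (15.4 and 19.1 CPM) differed from the pooled others by less than 1.5-fold.

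Mucins and mucus proteins and complement followed the same direction. Of 7 mucus genes at that level, 5 were higher and 1, the trefoil peptide gene Tff1, was lower than the pooled others (0.937 and 12.3 CPM), although cluster 1 ranked 4 of 16 for it and cluster 5 alone reached 191 CPM. Muc1, a transmembrane mucin, was at 437 CPM (429 to 446) and Muc20 at 66.8 CPM, both highest in cluster 1. Of 6 complement genes, 5 were higher and 1 lower. C3, the central complement component, was at 2048 CPM (2029 to 2067) against 252 to 1190 CPM elsewhere, and the complement regulators Cfi (163 CPM) and Cd55 (157 CPM) were also highest in cluster 1, though cluster 2, at 161 CPM of Cfi, lay within the counting interval of cluster 1 (158 to 169). Cd59a, which blocks the membrane attack complex, was lowest there, at 51.0 CPM.

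Among 12 estrogen response genes at that level, 8 were higher and 1 lower, with a median log2 ratio of 0.95, and this list shares Ltf, C3, Muc1, Lcn2 and Clca1 with the lists above. The estrogen receptor gene Esr1 was at 220 CPM in cluster 1 and 217 CPM in the others. The lower gene was Pgr, the progesterone receptor, at 64.6 CPM against 101 CPM. Interferon response genes were mixed: 8 of 19 were higher and 2 lower, with a median log2 ratio of 0.34. Besides Gbp4, the higher genes included Gbp3, Irf7 (55.4 and 24.8 CPM) and Ly6a (699 and 337 CPM), while Ifitm1 (983 and 1541 CPM) and Ifitm2 (524 and 789 CPM) were lower. Of 12 MHC class I genes 3 were higher, among them B2m (829 and 473 CPM), and of 6 class II genes only Cd74 was, at 765 CPM and far below the 1628 CPM of cluster 7.

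Genes of Wnt signaling were described by role. Of the 4 Wnt ligands at that level, Wnt4 was 2.09-fold higher in cluster 1 (181 CPM, 175 to 187, the highest of 16 clusters) and Wnt7b was higher too, whereas Wnt5a (45.5 and 37.0 CPM) and Wnt7a (65.8 and 62.1 CPM) differed by less than 1.5-fold. The summed CPM of the 18 ligands in the table was the highest of the 16 clusters (354 CPM, and 219 CPM in the pooled others). Of 9 receptors, Lgr4 was higher (47.5 and 30.3 CPM, highest in cluster 1) and Fzd2 lower (6.89 and 10.7 CPM). Cluster 10, at 45.3 CPM of Lgr4, lay within the counting interval of cluster 1 (44.6 to 50.5). Of 8 Wnt target genes none was higher by 1.5-fold and 3 were lower: Ccnd2 and the ubiquitin ligases Rnf43 (10.4 and 17.4 CPM) and Znrf3 (7.59 and 13.2 CPM), which remove Wnt receptors from the cell surface. Cluster 1 had the lowest summed CPM of the Wnt target list of all clusters (187 CPM, and 302 CPM in the pooled others), but the next cluster was close, at 190 CPM. Axin2 was likewise lowest there, at 5.53 CPM (4.58 to 6.62), with the next cluster at 5.67 CPM.

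All 15 cell division genes that passed the level were at least 1.5 times lower, with a median log2 ratio of -2.23. The summed CPM of all 20 genes of the list was the lowest of 16 clusters (253 CPM, and 779 CPM in the pooled others). The comparison contains clusters 6 and 4, which have the largest shares of dividing cells. The replication genes Mcm2, Mcm3, Mcm4, Mcm5, Mcm6 and Mcm7 were lowest in cluster 1 of all clusters, at 3.37 to 20.3 CPM. For Mcm6 the next cluster, at 20.2 CPM, lay within the counting interval of cluster 1 (17.5 to 21.3). Cenpf, Ube2c and Birc5 ranked only 9, 11 and 12 of 16 from the top in cluster 1, and all of them peaked in cluster 6. Without clusters 5 and 6 all 30 leading genes, which include Stmn1 and Ube2c of this list, kept their fold. Cluster 4 was not left out in any alternative. The part of clusters 4 and 6 in the lower ratios of the other list members was not tested. After thinning, 1.12% (0.413% to 2.43%) of cluster 1 cells had a UMI of Top2a or Mki67, a rank of 14 of 16, compared with 39.6% in cluster 6 and 17.1% in cluster 4. Top2a alone had a UMI in 0.936% of thinned cluster 1 cells and in 0.476% of thinned DES mesothelial cells, with overlapping intervals (0.305% to 2.17% and 0.282% to 0.751%). Unthinned, these shares were 8.96% and 2.01%.

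Of the 12 genes of the stem cell list, 8 reached that level, which the earlier reported markers Aldh1a1, Lgr5 and Axin2 did not. The study chose at least some of the others on these libraries, so the list is not independent evidence. Of the 8, 7 genes were lower and none higher, with a median log2 ratio of -1.92. Besides Ccnd2, Serpinb7, Ptn and Gstm7 they were Plat (48.5 and 118 CPM), Marcksl1 (93.7 and 144 CPM) and Calb1 (2.25 and 20.8 CPM, with 219 CPM in cluster 11). Wnt7a was the exception. Of 8 BMP target genes 5 were lower, including Id1 (48.1 and 104 CPM) and Id2 (53.4 and 153 CPM), both lowest in cluster 1, whereas Msx2 (153 and 166 CPM), Smad6 and Smad7 differed by less than 1.5-fold. Foxa2, the transcription factor of mature glands, was lowest in cluster 1 at 5.86 CPM (4.87 to 6.98), close to the next cluster (6.02 CPM) and far from cluster 14 (68.9 CPM). Of 6 developing gland genes at that level, 3 were higher (Prap1, Wnt7b and Sult1d1) and none lower, with a median log2 ratio of 0.51. The list members below that level were Klk1 (0.750 CPM, and 1.95 CPM in the pooled others) and Gpx3 (0.843 and 0.974 CPM). None of the 6 genes that the study linked to cancer cells differed by 1.5-fold from the pooled others. These others contain cluster 5, which the study named its cancer cells and which raises their pooled level of Olfm4. Olfm4 was at 56.8 CPM (rank 4 of 16) and at 58.9 CPM in the pooled others. Among the other clusters it ranged from 0.788 CPM to 685 CPM in cluster 5. Rad51b was at 113 CPM (rank 2) against 532 CPM in cluster 5, and Trp53 at 81.9 CPM (rank 15) against 113 CPM in the pooled others. That list, too, was chosen on these samples.

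Further gene groups are described by their counts. Of 8 luminal genes named by the study, 5 were higher and 1 lower, with a median log2 ratio of 0.80. Their summed CPM was 601 in cluster 1 (rank 2 of 16) and 647 in cluster 5. The study, by its own measure, found at most 4 of these genes enriched in any DES cluster and identified no luminal DES cluster. Of 6 simple epithelium genes none differed by 1.5-fold. Of 14 glutathione genes 1 was higher, Gsto1 (3331 and 1358 CPM, highest in cluster 1), and 4 were lower. Of 13 immediate early genes 9 were lower than the pooled others, although their summed CPM ranked 4 of 16. The sum was 1323 CPM in cluster 1 and 1713 CPM in the pooled others, which contain cluster 9 at 10257 CPM. The part of cluster 9 in these lower ratios was not tested. None of 81 ribosomal protein genes and none of 12 mitochondrially encoded genes differed by 1.5-fold, and their median log2 ratios were -0.24 and 0.15.

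Lists were next taken from the CO library, whose cells did not enter the DES clustering. Genes were assigned to the CO luminal clusters (2095 cells), the CO gland clusters (417 cells) or CO cluster 12, which the study named stem cells (71 cells), if they had at least 50 CPM there and at least 2 times the level of both other groups. In DES cluster 1, 36.2% of 127 CO luminal genes were at least 1.5 times higher and 7.87% lower, with a median log2 ratio of 0.47, the highest of the 16 DES clusters. Cluster 5 followed at 0.43. Of 98 CO stem genes 3.06% were higher and 28.6% lower, with a median of -0.26, and only cluster 5 was lower (-0.39). Of 149 CO gland genes 8.72% were higher and 14.8% lower, with a median of 0.03. Across all genes at this level 3.05% were higher and 5.5% lower. CPM were also summed over all genes of each list, with those below this level (143 luminal, 207 gland and 102 stem genes). By these sums, which abundant genes dominate, cluster 1 ranked 3 of 16 for the CO luminal genes (27761 CPM, and 33315 CPM in cluster 5). It ranked 2 for the CO gland genes (19672 CPM, and 14086 CPM in the pooled others) and 15 for the CO stem genes (8107 and 9770 CPM). Prap1 alone supplied 6676 CPM of the gland sum in cluster 1 and 1842 CPM in the pooled others.

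**Figure D3:**
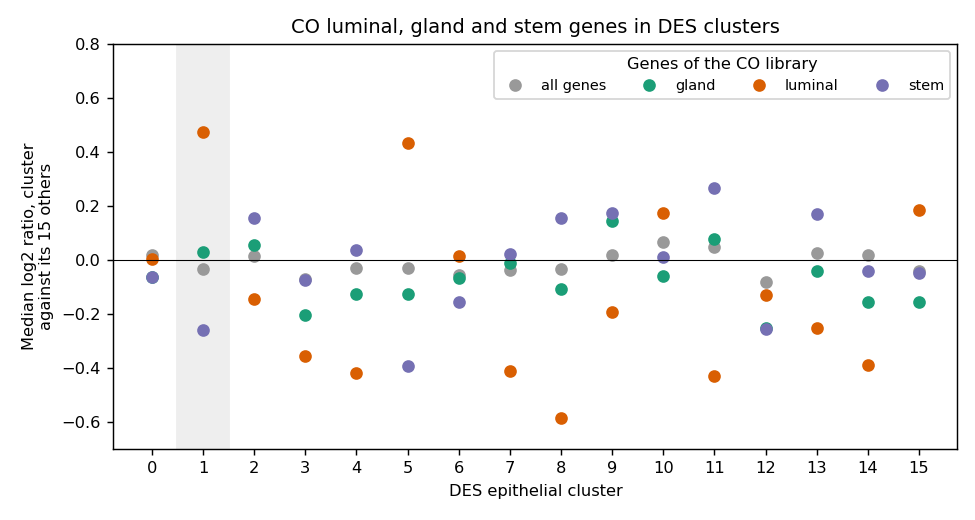
Median log2 ratio of CO luminal, gland and stem genes, and of all genes, in each DES epithelial cluster against the other 15 clusters pooled. In cluster 1 (shaded) luminal genes have the highest median of any cluster (0.47) and stem genes are at -0.26.

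Of the 15 leading higher genes 11 (73.3%) had their highest CO level in luminal cells, 3 in gland cells and 1 in stem cells, and 6 of the 11 belonged to the CO luminal genes. Of the 15 leading lower genes 9 (60%) had it in stem cells, 4 in luminal and 2 in gland cells, and 6 of the 9 belonged to the CO stem genes. Sprr1a, a leading lower gene, belonged to the CO luminal genes, at 428 CPM in CO luminal cells and 17.1 CPM in DES cluster 1. Among all 2834 genes compared, 33.0% were highest in CO luminal, 20% in gland and 47.0% in stem cells, and 85 belonged to the CO luminal, 52 to the gland and 59 (2.08%) to the stem genes. The levels themselves differed between the libraries, which are 1 per treatment and cannot be tested. Lypd8 was at 2.31 CPM (1.97 to 2.70) in CO luminal cells, at 0.115 CPM in CO gland cells and without a UMI in CO stem cells, against 729 CPM in DES cluster 1. Gbp4 was at 8.68 CPM (7.99 to 9.41) in CO luminal cells and Postn at 13.2 CPM (12.3 to 14.1). Krt84 (138 CPM) and Fcgbp (1091 CPM) in CO luminal cells lay close to their levels in DES cluster 1 (136 and 1336 CPM). Aoc1 (252 CPM), Kap (520 CPM) and Plac8 (1609 CPM) were higher in CO luminal cells than in DES cluster 1. Mmp7 and Prap1 belonged to the CO gland genes, at 632 and 45294 CPM in CO gland cells. Wnt7b belonged to the CO gland genes too, at 94.8 CPM in CO gland cells, 27.6 CPM in CO luminal cells and 40.7 CPM in DES cluster 1. Ptn was the only leading lower gene of the CO stem list whose level in DES cluster 1 (152 CPM) was at least 2 times that of CO luminal cells (74.4 CPM).

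The cluster most like cluster 1 was cluster 2 (Pearson r = 0.97 over 3701 genes, on log2(CPM + 1)), followed by cluster 10 (0.97) and cluster 0 (0.96), and the least like was cluster 14 (0.86). Against cluster 2, 101 of 2852 genes were at least 1.5 times higher and 72 lower in cluster 1. The 5 largest differences were in Krt84 (136 and 7.95 CPM), Lypd8 (729 and 45.8 CPM), Prap1 (6676 and 600 CPM), Aoc1 (62.4 and 5.66 CPM) and Kap (135 and 13.1 CPM), which are leading genes of cluster 1. Cluster 2 had more of AC167121.2 (331 and 80.0 CPM), Pla2g7 (53.9 and 15.3 CPM), Plat (168 and 48.5 CPM), Lgals3 (262 and 80.6 CPM) and Serpinf1 (78.1 and 25.3 CPM).

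In the authors' integrated clustering of CO and DES epithelium, 456 of the 536 cells (85.1%, 81.8% to 88.0%) fell into integrated cluster 4, where they were 72.7% of the 627 DES clustered cells. Another 47 fell into integrated cluster 2, 22 into integrated cluster 5, 8 into 10, 2 into 7 and 1 into 12. The 2 clusterings share the DES cells and their counts, so they are not independent. In the 456 cells all 30 leading genes kept their direction against the other DES clusters. In the 22 cells of integrated cluster 5 Lypd8 (60.0 CPM) and Kap (23.5 CPM) were below the pooled other clusters (70.2 and 32.7 CPM). The other 13 higher genes and all 15 lower genes kept their direction there, and 12 of the higher genes stayed past the fold. In the 47 cells of integrated cluster 2 Lypd8 was at 228 CPM, 14 of the 15 higher genes and all 15 lower genes kept their direction, and 13 of the higher genes stayed past the fold. The median log2 ratio of the CO luminal genes was 0.49 in the cells of integrated cluster 4, 0.34 in those of integrated cluster 2 and 0.15 in those of integrated cluster 5. That of the CO stem genes was -0.27, -0.22 and -0.07. The cells of cluster 1 were also ranked by UMIs and divided into 3 groups of 178 or 179. All 30 leading genes stayed at least 1.5-fold away from the other clusters in each group. These genes were chosen on the same 536 cells, so this describes the cluster and tests nothing. Lypd8 was at 922, 950 and 593 CPM in the lowest, middle and highest group, and Prap1 at 9710, 7345 and 5777 CPM. The median of the CO luminal genes was 0.54, 0.47 and 0.40 in these groups and that of the CO stem genes -0.41, -0.28 and -0.24.

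Whole tissue sections were a separate measurement in which the treatment was replicated, with 2 CO and 2 DES sections, 1 mouse each. The study examined DES sections for adenocarcinoma before it selected 2 mice per group. It reported a large tissue fold in 1 CO section and poor cluster identification in 1 DES section. For most of its own analyses it therefore used 1 section per group, whereas all sections are used here. UMIs were summed over all spots of a section (9117099 to 12506177), so that fewer cells of a type and less RNA per cell cannot be told apart. The sections differed in composition: basal markers (Krt14, Krt5 and Trp63) summed to 3.36 and 160 CPM in the CO sections and to 9526 and 5644 CPM in the DES sections, stromal markers to 2124 and 2144 CPM in CO and 1610 and 952 CPM in DES, muscle markers to 8381 and 9461 CPM in CO and 2375 and 2682 CPM in DES, and epithelial markers to 1899 and 1469 CPM in CO and 1985 and 2343 CPM in DES. The part of these shifts in the differences below was not tested.

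All 30 leading genes were tested in the sections, and 4 changed between DES and CO by edgeR's quasi-likelihood test (Benjamini-Hochberg adjusted p under 0.05 over 14098 genes, of which 5.3% were called). Among the leading higher genes only Pcp4l1 changed, and it was lower in DES: 252 and 169 CPM in CO against 36.4 and 46.2 CPM in DES (log2 fold change -2.56, SE 0.30, edgeR adjusted p = 0.024). Among the leading lower genes Sprr1a, an envelope protein of stratified epithelium, was at 121 and 88.7 CPM in CO and 1409 and 1000.1 CPM in DES (log2 fold change 3.31, SE 0.29, edgeR adjusted p = 0.021). Msx1, a homeobox gene, was at 77.7 and 87.1 CPM in CO and 13.8 and 7.29 CPM in DES (log2 fold change -3.18, SE 0.33, edgeR adjusted p = 0.021). Ccnd2 was at 11.8 and 7.70 CPM in CO and 35.2 and 33.0 CPM in DES (log2 fold change 1.59, SE 0.28, edgeR adjusted p = 0.047). In all 4 genes the CO and DES sections did not overlap. Without DES section 1, or without DES section 2, none of the 30 genes was called by edgeR. Nearest to the threshold without passing it were AC167121.2, at 162 and 52.7 CPM in CO and 8.77 and 12.4 CPM in DES (log2 fold change -3.55, edgeR adjusted p = 0.0501), and Serpinb7, at 32.8 and 7.07 CPM in CO and 431 and 441 CPM in DES (log2 fold change 4.23, edgeR adjusted p = 0.0522).

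Lypd8 was at 1.12 and 0.363 CPM in the CO sections and at 5.81 and 66.3 CPM in the DES sections. The groups did not overlap, but the DES sections lay far apart and the difference did not pass the test (log2 fold change 5.37, SE 1.42, edgeR adjusted p = 0.11). Prap1 was at 2925 and 30907 CPM in CO and at 1767 and 2949 CPM in DES, with overlapping groups (edgeR adjusted p = 0.19). Kap was at 193 and 2531 CPM in CO and at 16.2 and 35.8 CPM in DES (edgeR adjusted p = 0.085). Gbp4 was at 29.0 and 47.2 CPM in CO and at 25.3 and 123 CPM in DES, and the groups overlapped. An exact permutation of 4 sections cannot reach 0.05, and the edgeR p-values depend on variability shared across genes.

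**Figure D4:**
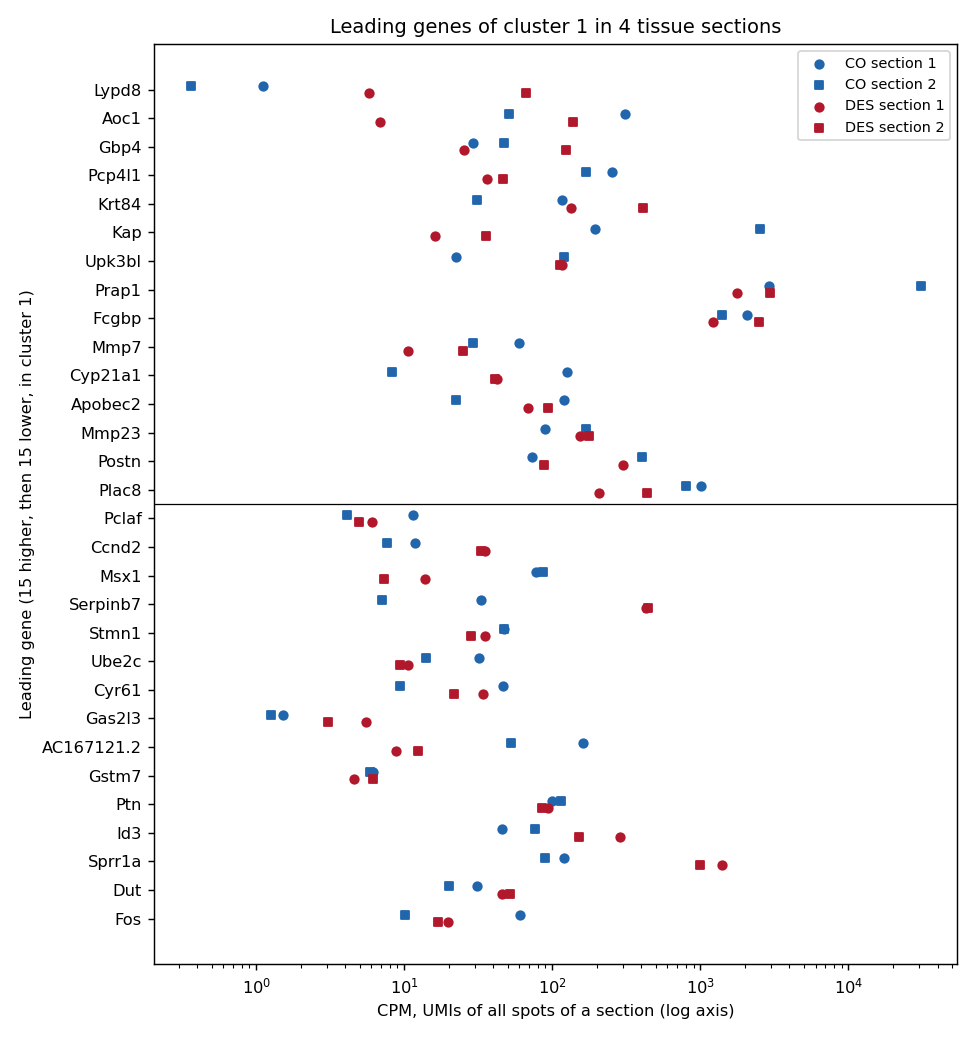
CPM of the 30 leading genes of cluster 1 in the 4 tissue sections (log axis), CO in blue and DES in red, with a circle for section 1 and a square for section 2 of each treatment. Pcp4l1, Ccnd2, Msx1 and Sprr1a passed the test. Lypd8 is higher in both DES sections (5.81 and 66.3 CPM) than in the CO sections (1.12 and 0.363 CPM).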

How the data were processed

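Single-cell and spatial libraries (10x Genomics 3' chemistry, UMIs) were made from uteri. The deposited counts are whole UMIs without normalization, which the authors obtained on mm10 with Cell Ranger 3.0.1 for cells and Space Ranger 1.2.2 for spots. Cell Ranger leaves out reads that match several genes, so levels of paralogous genes (Gbp4, Gstm7) are uncertain. Clusters and cell types are the authors' annotation, and their doublet removal was kept.

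UMIs were summed per cluster and scaled to CPM. Intervals are exact Poisson (levels) and Clopper-Pearson (shares, ratios) at 95% and cover counting error only. Genes with at least 50 CPM in cluster 1 or in the other 15 clusters pooled were compared, with a fold of 1.5 called higher or lower. Leading genes were the 15 largest and 15 smallest ratios. Those named against cluster 2 were the 5 largest and 5 smallest, and those named beside Wnt7b were taken from the 5 largest r. Some genes that these rules name are not reported here. Members of the fixed gene lists could be named too. Genes at the threshold (Cd74, Myb, Akr1c19, Npm3) were named as the nearest to it. Thinning used a fixed seed (20230). Cells below 3000 UMIs were left out of thinned shares (2 in cluster 1, 47 in the other clusters, 55 mesothelial). Gene positions are from GENCODE M21.

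Sections were compared with edgeR 4.0.16 (TMM, filterByExpr, quasi-likelihood test, Benjamini-Hochberg at 0.05), with DESeq2 1.42.0 as an alternative. Both scripts were tested on simulated data. The members and gene lists were chosen with earlier results of these data known. All alternatives are described in the closing section.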

Additional observations from a re-analysis of the deposited data

How the results depend on the processing

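The counts of 136 higher and 104 lower genes depended on the thresholds. With at least 20 CPM they were 224 and 258, with no filter beyond 10 UMIs 1073 and 3308, and at a fold of 2 they were 43 and 30. Other scalings, weightings and cell filters, and thinning to 3000 UMIs, kept both counts within 1.5 times. So did leaving out clusters 5 and 6, or 9 and 10 (the last chosen after seeing the data). All 30 leading genes kept their direction and their fold in the 8 alternatives run for them. Leaving out clusters 9 and 10 was not among these 8, although cluster 9 alone reached 2519 CPM of Fos and 935 CPM of Cyr61. The median of the CO luminal genes stayed between 0.45 and 0.55 and that of the CO stem genes between -0.32 and -0.21 in those 8, while that of the CO gland genes fell to -0.04 with thinned cells. The share of cells with an Epcam UMI was 98.7% at 5000 UMIs, 100% at 10000 and 100% without thinning, and that of Wnt7b 18.3%, 33.1% and 68.8%.

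The section comparison rests on few samples. edgeR called 747 genes (3438 had an unadjusted p under 0.05) and DESeq2 called 1756. Leaving out 1 section gave 3 to 2819 genes, and 0 to 14 of the leading genes in place of 4. Without DES section 1 the counts were 14 and 0, without DES section 2 they were 3 and 0, without CO section 1 they were 2819 and 14, and without CO section 2 they were 2336 and 14. Such fits assume that the lone section varies like the other group. DESeq2 called 12 of the leading genes. No filter beyond 1 count gave 6 and size factors of DESeq2 within edgeR 5. Sections share only a number (correlation of their deviations -0.005), and with the replicate block 527 genes and 5 leading genes were called. Adjusted p over these alternatives ranged from 4.2e-16 to 0.086 for Msx1 and from 0.00062 to 0.26 for Ccnd2.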
